A study of Mus musculus with 13 samples.

Results

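The genes described here are 8 mouse genes that write DNA methylation or keep it in place at imprinted regions, namely Dnmt1, Dnmt3a, Dnmt3b, Dnmt3l, Uhrf1, Zfp57, Trim28 and Dppa3. They were taken by symbol from a table of 23217 genes, and all 8 were found. The table holds poly(A) RNA of 13 whole C57BL/6J embryos taken at embryonic day 9.5, of which 10 are labelled xHomo and 3 xHet. The labels do not spell out these names. From what is known of the study, they stand for fathers homozygous or heterozygous for a Tet1 mutation, Tet1 being an enzyme that oxidizes methylated cytosine. No litter, batch or sex is given, so p-values measure only the spread between these samples. In RNA of whole embryos, fewer cells that express a gene and less of its RNA per cell cannot be told apart.

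DNA methylation of CpG sites is set by the de novo enzymes DNMT3A and DNMT3B, in the germ line with the inactive partner DNMT3L. After each round of replication it is copied to the new strand by DNMT1, which is brought to hemimethylated sites by UHRF1. At imprinted control regions the mark also has to survive the genome-wide loss of methylation in the early embryo. There the KRAB zinc finger protein ZFP57 binds the methylated copy and calls in the corepressor TRIM28 (KAP1), and DPPA3 (Stella), a protein of the egg and of germ cells, shields the maternal genome from oxidation.

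Levels are given as FPKM, fragments scaled to transcript length and to the mapped total of the library, so levels of different genes can be set beside each other. Trim28 was the highest at a mean of 255 FPKM over the 13 embryos, a level above that of 98.7% of the genes in the table. Uhrf1 followed at 114 FPKM, Dnmt1 at 57.8 FPKM, Zfp57 at 35.0 FPKM, Dnmt3a at 15.5 FPKM and Dnmt3b at 8.85 FPKM. Dppa3 and Dnmt3l were at 0.0954 and 0.0385 FPKM. Trim28 was above Uhrf1, Uhrf1 above Dnmt1, Zfp57 above Dnmt3a, Dnmt3a above Dnmt3b and Dnmt3b above Dppa3 in 13 of 13 embryos. The order of Dnmt1 and Zfp57 held in 12 embryos and turned in xHomo embryo 9, where Zfp57 was at 54.9 and Dnmt1 at 51.63 FPKM. Dppa3 exceeded Dnmt3l in 5 of 13 embryos, so the order of these near-silent genes is not resolved.

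On the mm9 build, counted from 1, Dnmt1 is listed at chromosome 9, 20711650 to 20764332, and Uhrf1 at chromosome 17, 56442760 to 56462909. Dnmt3a is listed at chromosome 12, 3806980 to 3914443, Dnmt3b at chromosome 2, 153475190 to 153513466, and Dnmt3l at chromosome 10, 77492776 to 77526360. Zfp57 is listed at chromosome 17, 37138108 to 37147674, Trim28 at chromosome 7, 13609501 to 13616381, and Dppa3 at chromosome 6, 122576442 to 122580289. The authors gave 1 value per gene over all its start sites, of which the table names 3 for Dnmt1, 2 each for Uhrf1, Dnmt3a and Dnmt3l and 4 for Zfp57. The oocyte and somatic forms of Dnmt1 are therefore not separated.

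The group comparison asked whether the 8 genes differed between xHomo and xHet embryos. It was read from a limma fit on log2(FPKM + 1) over the 12755 genes with a mean of at least 1 FPKM, with Benjamini-Hochberg adjustment at 0.05. Of the 8 members 6 were at or above this minimum. None of these 6 passed in limma, against 0.0235% of the genes tested, and 0 had an unadjusted p under 0.05, against 9.35% of the genes tested. The exact permutation test per gene over 286 splits also passed 0, with a smallest possible p of 0.0035 before adjustment over all genes, and 0 members had an unadjusted p under 0.05 in it. For 0 of the 6 did the embryo groups separate without overlap, against 2.24% of genes. The change was above 0 for 4 of the 6 members and for 59.7% of genes, with a median log2 change of 0.097 over the 6 members and 0.046 over the genes tested.

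**Figure D1:**
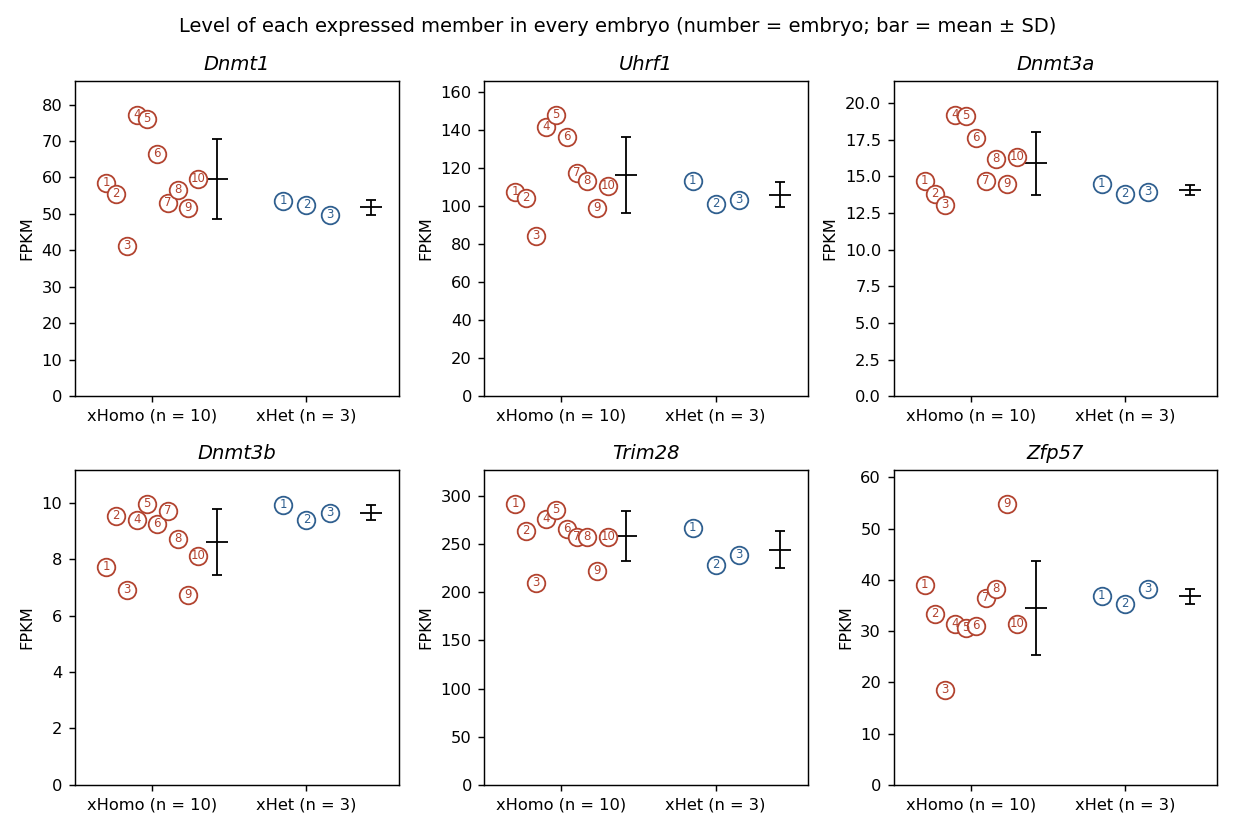
FPKM of Dnmt1, Uhrf1, Dnmt3a, Dnmt3b, Trim28 and Zfp57 in each of 10 xHomo and 3 xHet embryos; each circle is the embryo whose number it holds, and the bar beside the circles is the mean ± SD. The xHomo embryos range more widely than the xHet embryos for every gene shown. Over all genes tested the median SD of log2(FPKM + 1) was likewise larger, at 0.23 among xHomo and 0.1 among xHet embryos. The xHomo embryos 4, 5 and 6 are at the top for Dnmt1, Uhrf1 and Dnmt3a, and xHomo embryo 3 is at the bottom for these genes and for Trim28 and Zfp57.

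The genes of the maintenance step came first. Dnmt1 had a lowest value of 41.25, a median of 57.5 and a highest value of 77.18 FPKM in xHomo embryos, against 53.58, 52.42 and 49.59 FPKM in xHet embryos 1 to 3. In 7 of 10 xHomo embryos it was above the highest xHet embryo, in 1 below the lowest and in 2 between them. The mean was 59.5 ± 11.1 FPKM in xHomo embryos (SD, n = 10) and 51.9 ± 2.05 FPKM in xHet embryos (SD, n = 3), a log2 change of 0.17 (95% interval -0.15 to 0.50, limma adjusted p = 0.729). In embryos 1 to 3 of each group alone it was -0.02.

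Uhrf1 was likewise highest in xHomo embryos 4, 5 and 6 and lowest in xHomo embryo 3. It had a lowest value of 84.24, a median of 112 and a highest value of 147.97 FPKM in xHomo embryos, against 113.3, 101.05 and 103.17 FPKM in xHet embryos 1 to 3. It was above the xHet range in 4, below it in 2 and within it in 4 xHomo embryos. The mean was 116 ± 20.1 FPKM in xHomo and 106 ± 6.55 FPKM in xHet embryos (SD), a log2 change of 0.12 (95% interval -0.19 to 0.43, limma adjusted p = 0.819), and -0.11 in embryos 1 to 3 of each group alone.

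Among the de novo enzymes, Dnmt3a lay mostly above and Dnmt3b mostly below the xHet values. Dnmt3a had a lowest value of 13.03, a median of 15.4 and a highest value of 19.19 FPKM in xHomo embryos, against 14.47, 13.79 and 13.92 FPKM in xHet embryos 1 to 3. It was above the xHet range in 8 and below it in 1 of 10 xHomo embryos. The mean was 15.9 ± 2.15 FPKM in xHomo and 14.1 ± 0.361 FPKM in xHet embryos (SD), a log2 change of 0.16 (95% interval -0.08 to 0.39, limma adjusted p = 0.667). Dnmt3a passed in 1 alternative fit, with array weights, which give xHomo embryo 3 the lowest weight (log2 change 0.18, limma adjusted p = 0.0489). That fit passed 2779 genes, 21.8% of those tested. In embryos 1 to 3 of each group alone the log2 change of Dnmt3a was -0.02.

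Dnmt3b had a lowest value of 6.73, a median of 9.0 and a highest value of 9.97 FPKM in xHomo embryos, against 9.91, 9.39 and 9.65 FPKM in xHet embryos 1 to 3. It was below the xHet range in 7 and above it in 1 of 10 xHomo embryos. The mean was 8.61 ± 1.17 FPKM in xHomo and 9.65 ± 0.260 FPKM in xHet embryos (SD), a log2 change of -0.16 (95% interval -0.40 to 0.08, limma adjusted p = 0.667). The lowest values were those of xHomo embryos 9, 3 and 1, at 6.73, 6.92 and 7.73 FPKM.

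Dnmt3b over Dnmt3a is a ratio within each library that library scaling does not change. It was chosen after its values were seen, so the groups are described without a test of their difference. The ratio was 0.545 ± 0.0733 in xHomo embryos (SD, n = 10) and 0.686 ± 0.00629 in xHet embryos (SD, n = 3). In 9 of 10 xHomo embryos it lay between 0.464 and 0.663, below all of 0.685, 0.681 and 0.693 in xHet embryos 1 to 3. In xHomo embryo 2 it was 0.690, within the xHet range. The other ratio of a step, Uhrf1 over Dnmt1, was 1.96 ± 0.121 in xHomo and 2.04 ± 0.0995 in xHet embryos (SD, n = 10 and 3). Its ranges of 1.84 to 2.22 and 1.93 to 2.11 overlapped, with 5 xHomo embryos below the xHet range, 1 above and 4 within. Zfp57 over Trim28 lay below its xHet range in 7 xHomo embryos, above it in 1 and within it in 2. How many other gene pairs reach 9 of 10 was not counted, and only 3 xHet embryos set each range. The count for Dnmt3b over Dnmt3a therefore cannot be called particular to these genes.

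Trim28 varied least of the 6 tested members among xHomo embryos, with an SD of 0.15 on the log2(FPKM + 1) scale, and most among xHet embryos, with 0.11. It had a lowest value of 209.36, a median of 261 and a highest value of 292.28 FPKM in xHomo embryos, against 266.43, 228.53 and 238.42 FPKM in xHet embryos 1 to 3. It was above the xHet range in 3, below it in 2 and within it in 5 xHomo embryos. The mean was 259 ± 25.9 FPKM in xHomo and 244 ± 19.7 FPKM in xHet embryos (SD), a log2 change of 0.08 (95% interval -0.15 to 0.31, limma adjusted p = 0.841), and its sign turned after quantile normalization and TPM rescaling.

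Zfp57 varied most of the 6 tested members among xHomo embryos, with a coefficient of variation of 26.6%, against 4.08% among xHet embryos. A wider spread among xHomo embryos was common to the table. The median SD of log2(FPKM + 1) over the genes tested was 0.23 among xHomo and 0.1 among xHet embryos. Zfp57 had a lowest value of 18.49, a median of 32.4 and a highest value of 54.9 FPKM in xHomo embryos, against 36.9, 35.21 and 38.2 FPKM in xHet embryos 1 to 3. It was below the xHet range in 6, above it in 2 and within it in 2 xHomo embryos. The mean was 34.5 ± 9.17 FPKM in xHomo and 36.8 ± 1.5 FPKM in xHet embryos (SD), a log2 change of -0.13 (95% interval -0.58 to 0.31, limma adjusted p = 0.859). The largest and smallest xHomo values, in embryos 9 and 3, differed 2.97-fold. In these embryos 4.56% and 10.2% of all tested genes lay 1 log2 unit or more from their mean in xHet embryos, while the share was 1.45% to 2.30% in the other 8 xHomo embryos. The part of such library-wide differences in the Zfp57 values was not tested. Without xHomo embryo 3 the log2 change of Zfp57 was -0.04, and without xHomo embryo 9 it was -0.21.

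Dnmt3l and Dppa3, the members known from the germ line and the egg, were below the minimum level and were not tested. Dnmt3l was listed above 0 in 5 of 10 xHomo embryos, with 0.13 FPKM at the highest, and in 3 of 3 xHet embryos, at 0.03, 0.09 and 0.03 FPKM. Dppa3 was listed above 0 in 7 of 10 xHomo embryos, with a median of 0.085 and a highest value of 0.39 FPKM in embryo 5, and at 0 in xHet embryos 1 to 3. The read depth behind these values is unknown, and a value of 0 says only that the gene is listed at 0. Most listed germ cell markers were also low. Among 12 listed markers 7 had a mean under 1 FPKM, among them Dazl, at 0.12 FPKM at the highest in xHomo and 0.03 FPKM in xHet embryos. In the whole table only 12755 of 23217 genes had a mean of at least 1 FPKM. Ddx4, a helicase of germ cells, ranged from 0.07 to 0.65 FPKM in xHomo and from 0.43 to 0.55 FPKM in xHet embryos. The summed level of the 12 markers ran from 16.2 to 27.9 FPKM in xHomo and from 23.0 to 25.9 FPKM in xHet embryos. Kit, a receptor also made outside germ cells, gave 3.95 to 14.5 FPKM of it in xHomo and 11.89 to 13.85 FPKM in xHet embryos. Of 5 markers tested 0 passed in limma, with 1 positive and 4 negative changes and a median log2 change of -0.22. Those with an unadjusted p under 0.05 lay in opposite directions. Tfap2c, a factor of germ cells and surface ectoderm, was at 3.95 ± 1.15 FPKM in xHomo and 2.24 ± 0.249 FPKM in xHet embryos (limma adjusted p = 0.481). Nanos3, a factor of germ cell survival, was at 1.04 ± 0.638 FPKM in xHomo and 2.47 ± 1.88 FPKM in xHet embryos (limma adjusted p = 0.521). Its xHet values were 4.62, 1.61 and 1.17 FPKM, and without xHet embryo 1 its log2 change went from -0.70 to -0.29. Whether germ cells carried the trace of Dppa3 was not tested.

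Single embryos were then set against the mean of the xHet embryos, since a group mean can hide embryos that depart in opposite directions. None of the 60 values of the 6 tested members in xHomo embryos was at least 1 log2 unit away, while 2.89% of all gene-embryo values were. At a distance of 0.5 log2 unit, 4 of 60 values departed, against 11.6% of all gene-embryo values. These 4 were Dnmt1 in xHomo embryos 4 and 5, at 0.57 and 0.54 log2 units above, and Zfp57 in xHomo embryos 9 and 3, at 0.57 above and 0.95 below. The SD of log2(FPKM + 1) among xHomo embryos was 0.38 for Zfp57, 0.26 for Dnmt1, 0.25 for Uhrf1, 0.18 for Dnmt3a and Dnmt3b, and 0.15 for Trim28, with a median of 0.23 over the genes tested. The SD of Zfp57 exceeded that of 85.0% of genes tested and the SD of Trim28 that of 14.7%.

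**Figure D2:**
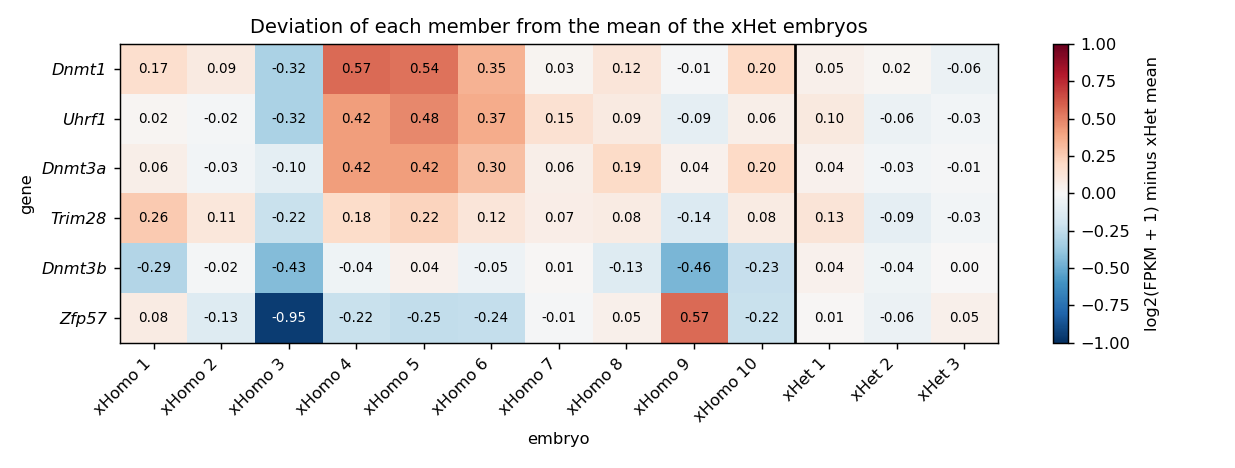
Difference of log2(FPKM + 1) from the mean of the xHet embryos for the 6 tested members (rows) in 10 xHomo and 3 xHet embryos (columns, with the vertical line between the groups); colour and number both give the difference. Dnmt1, Uhrf1 and Dnmt3a are 0.30 to 0.57 above in xHomo embryos 4, 5 and 6, and Zfp57 is 0.95 below in xHomo embryo 3 and 0.57 above in xHomo embryo 9.

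Dnmt1, Uhrf1 and Dnmt3a varied together from embryo to embryo. In xHomo embryos 4, 5 and 6, Dnmt1 was at 77.18, 76.03 and 66.5 FPKM, Uhrf1 at 141.79, 147.97 and 136.52 FPKM and Dnmt3a at 19.19, 19.08 and 17.58 FPKM. Each of these values was above those of the other 10 embryos for the same gene. Over the 13 embryos Pearson r of the log2 values was 0.939 for Dnmt1 with Uhrf1, 0.937 for Dnmt1 with Dnmt3a and 0.919 for Uhrf1 with Dnmt3a, given as a description. All points of such a correlation share the scaling of their library. With median-of-ratios scaling the values were 0.860, 0.805 and 0.774. Trim28 and Dnmt1 gave 0.781, and 0.378 with that scaling. Among 12754 genes ordered by r with Dnmt1 over the 13 embryos, Uhrf1 was at rank 51, Dnmt3a at 55, Trim28 at 1329 and Dnmt3b at 5633. For Uhrf1, Dnmt1 was at rank 35 and Dnmt3a at 105. Many other genes were thus as much alike or more so.

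Dnmt3b and Zfp57 were less like these genes. Over 13 embryos Dnmt3b gave r = 0.328 with Dnmt3a, 0.452 with Dnmt1 and 0.607 with Uhrf1. Over the 10 xHomo embryos alone these were 0.579, 0.669 and 0.783, and without embryo 3 they were 0.432, 0.510 and 0.689. Over 13 embryos they were -0.009, 0.069 and 0.33 with median-of-ratios scaling, and 0.503, 0.549 and 0.681 after TPM rescaling. Zfp57 gave r = 0.099 with Dnmt1 and 0.145 with its corepressor Trim28 over 13 embryos. Over the 10 xHomo embryos these were 0.171 and 0.198, and without embryo 3 they were -0.676 and -0.706. Over 13 embryos they were -0.554 and -0.471 with median-of-ratios scaling, and -0.131 and -0.232 after TPM rescaling. The sign of these values thus depended on the scaling and on embryo 3. In xHomo embryos 4, 5 and 6 Zfp57 was at 31.4, 30.65 and 31.07 FPKM, below the xHet range of 35.21 to 38.2 FPKM.

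**Figure D3:**
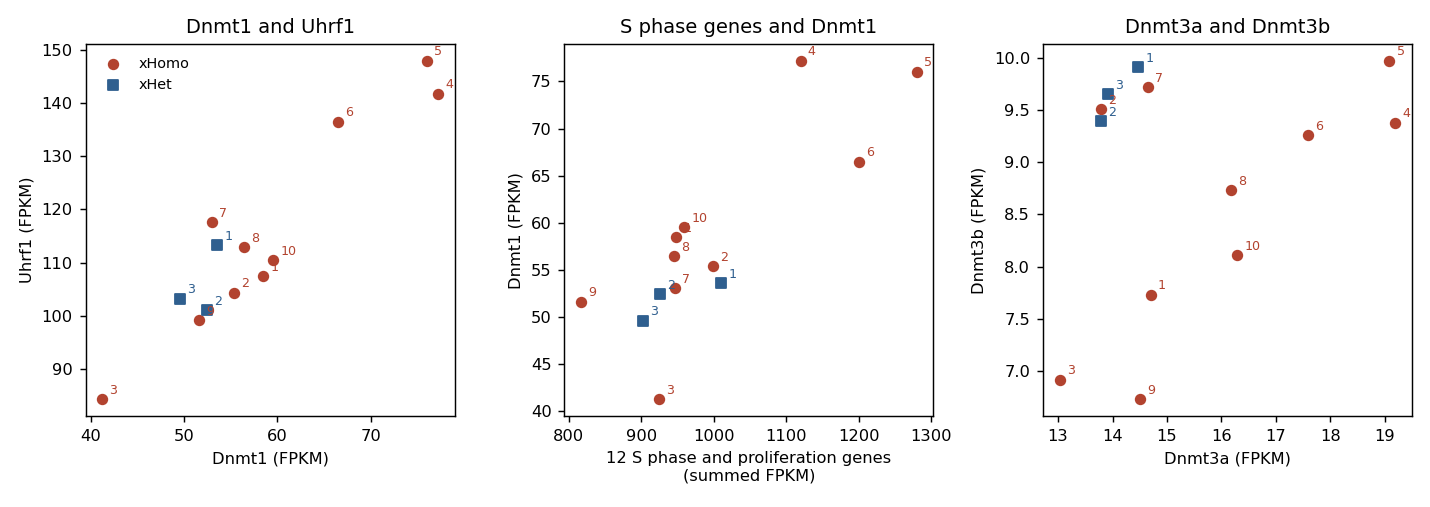
Each point is 1 embryo, numbered within its group: Uhrf1 against Dnmt1 (left), Dnmt1 against the summed FPKM of 12 S phase and proliferation genes (middle) and Dnmt3b against Dnmt3a (right), all in FPKM on axes that do not start at 0. The xHomo embryos 4, 5 and 6 lie at the upper right in the left and middle plots, and in the right plot the 3 xHet embryos lie at the upper left with xHomo embryos 2 and 7.

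DNMT1 and UHRF1 are known to be made in dividing cells, and the E2F factors drive genes of S phase. The promoters of the genes that varied together are shown, as RefSeq gives them for GRCm38.p6, with 250 bases before and 50 after an annotated start. A spelling of the E2F consensus (TTTCCCGC, TTTCGCGC, TTTGCCGC or TTTGGCGC, on both strands) is in capitals. The windows are Dnmt1 at chr9:20952574-20952873 on the minus strand, Uhrf1 at chr17:56304063-56304362 on the plus strand and Dnmt3a at chr12:3806730-3807029 on the plus strand.
Dnmt1: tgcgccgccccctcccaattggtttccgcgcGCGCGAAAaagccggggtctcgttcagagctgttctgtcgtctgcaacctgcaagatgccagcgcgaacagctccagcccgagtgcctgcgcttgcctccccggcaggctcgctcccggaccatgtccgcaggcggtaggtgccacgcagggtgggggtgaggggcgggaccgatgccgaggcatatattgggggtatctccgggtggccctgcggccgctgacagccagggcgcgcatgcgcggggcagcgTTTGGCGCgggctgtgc
Uhrf1: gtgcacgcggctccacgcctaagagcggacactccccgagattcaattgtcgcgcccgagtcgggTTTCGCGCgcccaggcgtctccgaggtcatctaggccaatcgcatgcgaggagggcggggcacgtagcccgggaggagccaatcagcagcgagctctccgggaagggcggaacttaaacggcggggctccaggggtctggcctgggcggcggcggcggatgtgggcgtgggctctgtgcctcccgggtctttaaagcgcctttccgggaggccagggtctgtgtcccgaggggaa
Dnmt3a: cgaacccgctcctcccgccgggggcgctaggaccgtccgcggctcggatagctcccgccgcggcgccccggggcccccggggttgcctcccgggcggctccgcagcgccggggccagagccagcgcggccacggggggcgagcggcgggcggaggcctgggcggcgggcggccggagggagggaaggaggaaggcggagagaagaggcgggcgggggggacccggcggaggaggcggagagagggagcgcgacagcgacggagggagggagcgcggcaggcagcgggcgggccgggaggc

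The Dnmt1 window holds 2 such spellings and the Uhrf1 window 1, while the Dnmt3a window holds none. RefSeq lists 16 start sites for 7 of the members, with none in the table used for Dppa3. These 2 windows were the only ones of the 16 with a spelling, a share of 12.5%, against 2.26% of 32851 promoter windows in the table. The other windows of Dnmt1 and Uhrf1 hold none. All 3 windows shown are rich in CpG, with 33 CpG in the Dnmt1 window, 33 in the Uhrf1 window and 46 in the Dnmt3a window, against a median of 7 over all windows. Every spelling used contains CG, and the shares above were not compared among windows of like CpG number. They therefore do not show an excess of the spelling beyond CpG content. The 3 windows of Dnmt3l hold 3 to 6 CpG. A match of letters is a description of the window and not evidence that a factor binds there.

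Most genes of a list for S phase and proliferation were highest in xHomo embryos 4, 5 and 6, as Dnmt1 and Uhrf1 were. This held for 9 of 12 genes, the exceptions being Ccna2, Ccne1 and Mcm6. Genes outside the list, such as Dad1 and Flii, were also highest in these embryos. The share of all genes with this pattern was not counted, so it cannot be called particular to the list. The summed level of the 12 listed genes was 1120, 1280 and 1200 FPKM in xHomo embryos 4, 5 and 6, 817 to 999 FPKM in the other xHomo embryos, and 1010, 926 and 903 FPKM in xHet embryos 1 to 3. In the group comparison 0 of the 12 passed in limma. Of them 2 had an unadjusted p under 0.05 and were higher in xHomo embryos, a direction and limit met by 7.63% of genes tested, while 1.72% met it in the lower direction. These were Mcm3 and Mcm6 of the replicative helicase. Mcm3 stood at 84.2 ± 10.9 FPKM in xHomo and 69.3 ± 3.69 FPKM in xHet embryos (limma adjusted p = 0.518).

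The embryos also differed in the sex-linked genes. Xist, which coats the X chromosome that it silences in female cells, was at 30.5 to 158.8 FPKM in xHomo embryos 2, 3, 7, 9 and 10, at 0.05 to 0.10 FPKM in the other 5 xHomo embryos, and at 0.05 to 0.08 FPKM in the xHet embryos. The Y-linked Ddx3y was at 0 to 0.03 FPKM in the 5 embryos with high Xist. It was at 11.77 to 14.58 FPKM in the other 5 xHomo embryos and at 13.68 to 15.06 FPKM in xHet embryos. By these genes the xHet embryos read as male and 5 of 10 xHomo embryos as female, so the groups are unbalanced in sex. Dnmt1 was at 41.25 to 59.51 FPKM in the 5 xHomo embryos with high Xist and at 56.42 to 77.18 FPKM in the 5 with low Xist, against 49.59 to 53.58 FPKM in xHet embryos. All 5 xHomo embryos with low Xist were thus above the xHet range for Dnmt1, and likewise for Dnmt3a, at 14.7 to 19.19 FPKM against 13.79 to 14.47 FPKM. Among them are xHomo embryos 4, 5 and 6, the highest for both genes. In the others, xHomo embryos 1 and 8, Dnmt1 was at 58.49 and 56.42 FPKM and Dnmt3a at 14.7 and 16.18 FPKM. Uhrf1 and Trim28 were above the xHet range in 3 of the 5 with low Xist, and Dnmt3b and Zfp57 in 1. The share of all genes separated in this way was not counted. Among embryos with low Xist alone the log2 change was 0.35 for Dnmt1 (limma adjusted p = 0.181) and 0.28 for Dnmt3a (limma adjusted p = 0.182), while the median over all genes was 0.102. In that fit 2445 of 12755 genes had an unadjusted limma p under 0.05, among them Dnmt1, Dnmt3a and Uhrf1. With log2 Xist as a covariate over all 13 embryos the log2 change was 0.33 for Dnmt1 (limma adjusted p = 0.535). As every xHet embryo had low Xist, the embryos with high Xist have no xHet counterpart.

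By a fixed rule the 3 genes with the highest Pearson r over 13 embryos were named for each member, with no claim of shared function. For Dnmt1 they were Chd4, Pdcd6ip and Baz1b (r = 0.984, 0.972 and 0.972). Chd4 encodes the remodelling ATPase of the NuRD complex and was at 100.43, 103.11 and 93.89 FPKM in xHomo embryos 4, 5 and 6, against 65.25 to 68.91 FPKM in xHet embryos. For Uhrf1 they were Adprh, Dad1 and Adipor2 (0.977, 0.970 and 0.970), and for Dnmt3a Hnrnpul2, Ckap5 and Flii (0.984, 0.964 and 0.958). For Dnmt3b they were Smpd4, Csrp2bp and Bend3 (0.927, 0.920 and 0.917), and for Trim28 Ppp1r9b, Zfp629 and Slc27a4 (0.932, 0.912 and 0.911). For Zfp57 they were Miip, AW549877 and Cp (0.970, 0.964 and 0.961), the last encoding the plasma copper protein ceruloplasmin. Like Zfp57, Cp was lowest in xHomo embryo 3 and highest in xHomo embryo 9, where it was at 1.87 and 6.28 FPKM, while xHet embryos ranged from 4.03 to 4.46 FPKM.

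Other genes of the pathway were read from the same fit. In it 59.7% of all genes tested had a positive change, the share to set beside the counts of positive changes below. Of 10 partners of maintenance methylation 0 passed, with 8 positive and 2 negative changes. The smallest p was that of Lig1, the ligase that seals replicated strands, at 64.3 ± 5.42 FPKM in xHomo and 52.5 ± 2.64 FPKM in xHet embryos (log2 change 0.28, limma adjusted p = 0.481). The next was Rfc1, the large subunit of the clamp loader, at 26.5 ± 3.53 and 22.7 ± 1.89 FPKM (limma adjusted p = 0.580).

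Of 14 corepressor partners of TRIM28, 0 passed, with 9 positive and 5 negative changes. Cbx3, which encodes the heterochromatin protein HP1 gamma, was at 227 ± 24.7 FPKM in xHomo and 185 ± 15.3 FPKM in xHet embryos (limma adjusted p = 0.50). Hdac2, a histone deacetylase gene, was at 92.9 ± 8.84 and 80.8 ± 2.71 FPKM (limma adjusted p = 0.544).

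Of 11 other chromatin factors of imprinted regions 0 passed, with 9 positive changes, and of 7 genes of the chromatin context of de novo methylation 0 passed, with 5 positive changes. Kdm5c, an X-linked histone demethylase gene, was at 22.1 ± 3.45 FPKM in xHomo and 17.2 ± 1.20 FPKM in xHet embryos (limma adjusted p = 0.512). It is known to escape X inactivation. It was at 16.83 to 26.97 FPKM in xHomo embryos with high Xist and at 17.86 to 23.93 FPKM in those with low Xist, against 16.26 to 18.54 FPKM in xHet embryos.

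Of 8 methyl-CpG readers 6 were tested and 0 passed, with 3 positive changes. Mbd2 was at 9.01 ± 1.20 FPKM in xHomo and 7.07 ± 0.444 FPKM in xHet embryos, and Mbd3, its paralogue in NuRD, at 82.4 ± 9.13 and 69.2 ± 2.09 FPKM (limma adjusted p = 0.494 and 0.518). Of 9 genes of oxidation and base excision 0 passed, with 5 positive changes, Tet1 being at 2.15 ± 0.543 FPKM in xHomo and 2.35 ± 0.367 FPKM in xHet embryos (limma adjusted p = 0.863). Of 12 genes of methyl donor supply 11 were tested and 0 passed, with 7 positive changes. Among them Mat2a, which encodes the S-adenosylmethionine synthetase of most tissues, was at 128 ± 32.3 FPKM in xHomo and 159 ± 8.40 FPKM in xHet embryos (limma adjusted p = 0.590). In these 7 lists together 5 of 68 tested genes had an unadjusted p under 0.05, or 7.35%, against the 9.35% of all genes given above. They were Lig1, Cbx3, Kdm5c, Mbd2 and Mbd3. With array weights 17 of the 68 passed in limma, or 25.0%, against 21.8% of all genes, 16 of them higher and 1, Mat2a, lower in xHomo embryos.

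Maternal factors of the egg were near silent like Dppa3 and Dnmt3l. Among the 7 with a row of values, 6 had a mean under 1 FPKM, and their summed level was 2.24 to 2.99 FPKM in xHomo and 2.37 to 2.90 FPKM in xHet embryos. Trophoblast and decidua markers were mostly low, with 8 of 10 under 1 FPKM and Tpbpa at 0 in every embryo, while 12755 of 23217 genes in the table reached 1 FPKM. Their summed level was 14.9 to 23.6 FPKM in xHomo and 14.3 to 15.8 FPKM in xHet embryos. Markers of the embryo proper summed to 101 to 153 FPKM in xHomo and 135 to 139 FPKM in xHet embryos, and those of visceral endoderm to 12.9 to 76.3 and 36.1 to 48.2 FPKM. Primitive erythroid markers summed to 5170 to 15300 FPKM in xHomo and 10100 to 10200 FPKM in xHet embryos, with the lowest values, 5170 and 6190 FPKM, in xHomo embryos 4 and 6. Replication-dependent histone genes, most of whose transcripts carry no poly(A) tail, had positive changes in 14 of 14 genes, against 59.7% of all genes tested. None of the 14 passed in limma. Of them 6 were higher in xHomo embryos with an unadjusted limma p under 0.05, against 7.63% of all genes tested. Their summed levels were 42.9 to 110 FPKM in xHomo and 32.0 to 42.8 FPKM in xHet embryos. The part of these differences in the members' values was not tested.

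Since ZFP57 and TRIM28 act at imprinted regions, their values are given for each xHomo embryo in which any of 15 imprinted genes of a reference list was below 0.5 of its lowest xHet value, a limit chosen after the values were seen. There were 8 such embryos. Zfp57 was above the xHet range of 35.21 to 38.2 FPKM in 2 of them, within it in 2 and below it in 4. It was also below the range in xHomo embryos 2 and 6, in which 0 of the 15 genes met the limit. The limit takes low values only. Grb10, on the same list, was raised in xHomo embryos 2 and 6, at 435.96 and 575.83 FPKM, against 209.49 to 220.4 FPKM in xHet embryos. Over all 10 xHomo embryos Grb10 ran from 217.23 to 575.83 FPKM. Trim28 was above its xHet range in 3 of the 8 embryos, within it in 3 and below it in 2.

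The gene most often low was Peg10, a paternally expressed gene of retrotransposon origin, together with its neighbour Sgce, in xHomo embryos 1, 7, 8, 9 and 10. Peg10 was at 0.03, 0.01, 0.05, 0.01 and 4.19 FPKM in these embryos, against 57.77 to 99.77 FPKM in xHet embryos. Zfp57 was there at 38.95, 36.48, 38.13, 54.9 and 31.42 FPKM, so embryos with the same low gene lay above, within and below the xHet range. In xHomo embryos 2 to 6 Peg10 was at 66.82 to 126.9 FPKM. Zfp57 was at 33.41, 18.49, 31.4, 30.65 and 31.07 FPKM in these, below the xHet range in each. Whether Zfp57 differs between embryos with low and with kept Peg10 was not tested. The paternally expressed Peg3 was low in xHomo embryos 1 and 4, at 4.99 and 0.05 FPKM, against 29.72 to 32.62 FPKM in xHet embryos. Zfp57 was above the xHet range in the first of these, at 38.95 FPKM, and below it in the other, at 31.4 FPKM.

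The paternally expressed Impact was low in xHomo embryos 3, 5 and 10, at 4.94, 6.48 and 5.63 FPKM, against 18.29 to 21.3 FPKM in xHet embryos. Zfp57 was below the xHet range in these, at 18.49, 30.65 and 31.42 FPKM. The maternally expressed Meg3, with Rian, was low in xHomo embryos 3 and 7, at 75.59 and 0.69 FPKM, against 239.96 to 268.35 FPKM in xHet embryos. Rian was at 94.44 and 3.18 FPKM, against 195.92 to 207.6 FPKM in xHet embryos. In xHomo embryo 3, 10.2% of all tested genes lay 1 log2 unit or more from their xHet mean. The part of this library-wide difference in its imprinted genes was not tested. Zfp57 was below the xHet range in xHomo embryo 3 and within it in xHomo embryo 7, at 36.48 FPKM. The remaining low values were Nnat in xHomo embryo 5, Kcnq1ot1 in xHomo embryo 3 and Mest in xHomo embryo 9. No relation between the members and imprinted genes was tested. The embryos above were grouped by the measured low values, so the values of Zfp57 and Trim28 in them are a description.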

How the data were processed

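Poly(A) RNA of 13 embryos was sequenced from directional libraries. The authors deposited 1 table of FPKM values with loci on mm9. The tools named in the submitters' processing notes are Cufflinks, TopHat and, for base calls, bcl2fastq 1.8.2; their settings, the annotation and any filter were not given in the sources used here. As FPKM holds no counts, depth per sample is unknown and no counting interval is given. Summed FPKM ran from 500126 to 662936. Listed starts were taken as counted from 0, because end minus start equalled the RefSeq gene span for 7169 genes and was 1 less for 455, of 20639 compared.

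Groups came from the labels. limma 3.58.1 in R 4.3.3 (eBayes with trend, two-sided, no covariate) was run on log2(FPKM + 1) for 12755 genes with a mean of at least 1 FPKM, adjusted over all of them at 0.05, xHomo minus xHet. Fold changes on this scale understate those of low genes. The fit was checked on simulated data. Likeness is Pearson r over 13 embryos. A departure is 1 log2 unit or more from the xHet mean. Named were all members, up to 4 genes of smallest p per list, the 3 most alike genes per member, and imprinted genes of a reference list. The members and lists were chosen with earlier results of these data known. Alternatives were pseudocounts, no filter, 3 rescalings, array weights, Xist as covariate, embryos with low Xist only, exact permutation, a replicate block and leaving out each embryo. Promoters are RefSeq's for GRCm38.p6. Computation used Python 3.11.15, numpy 2.4.6, pandas 2.3.3 and matplotlib 3.10.9.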

Additional observations from a re-analysis of the deposited data

Results flagged for a closer look

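Zfp57 over Trim28, a ratio within each library chosen after its values were seen, stood apart in 1 embryo. It was 0.247 in xHomo embryo 9, against 0.0883 to 0.148 in the other 9 xHomo embryos and 0.138, 0.154 and 0.160 in xHet embryos 1 to 3. The gap to the next embryo was 0.624 of the range of the 10 xHomo embryos, above Dixon's limit of 0.466. Because the ratio was chosen on these values, this describes the embryo and is no test. The same screen was run on all 8 members and 4 such ratios, chance exceeds the limit in about 1 in 20 groups, and 0 others were above it. Zfp57 alone had a gap of 0.438.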

How the results depend on the processing

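Of 12755 genes 3 passed between xHomo and xHet embryos. All 3 were higher in xHomo embryos. The number was 13 with no filter on low values (3 higher, 10 lower), 5 after TPM rescaling, 5 after quantile normalization, 2779 with array weights (2371 higher, 408 lower), 1 with Xist as covariate, 8 among embryos with low Xist (7 higher, 1 lower) and 0 in the exact permutation test, where 286 splits allow no p below 0.0035 and adjustment leaves little room to pass (1196 genes at an unadjusted p under 0.05). Leaving out 1 embryo gave 1 to 11, with 1 without xHet embryo 2 or 3, 5 without xHomo embryo 2 and 11 without xHomo embryo 3. Dnmt3a with array weights (log2 change 0.18) was the only member call under any of these settings.

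The signs of Dnmt3b and Zfp57 held under every setting, at -0.24 to -0.09 and -0.34 to -0.04. Trim28 turned after TPM rescaling (-0.00066) and quantile normalization (-0.09), and Tet1 turned with array weights (0.05). Leaving out 1 embryo kept every member's sign, at 0.13 to 0.23 for Dnmt1, 0.13 to 0.18 for Dnmt3a, -0.18 to -0.12 for Dnmt3b, 0.08 to 0.17 for Uhrf1, -0.21 to -0.04 for Zfp57 and 0.03 to 0.14 for Trim28. The cause of these turns was not tested.

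The replicate block used embryos numbered 1 to 3 of both groups and passed 1 gene, which was lower. There Dnmt1 was at -0.02, Dnmt3a at -0.02, Uhrf1 at -0.11 and Rfc1 at -0.0031, and the same embryos without the block, added after seeing the data, gave these values too. Same-numbered embryos correlated at -0.0652, -0.0403 and -0.0383 in their deviations, against -0.143 to 0.116 for differently numbered embryos. These values give no sign that the numbers pair the embryos. With only 3 xHet embryos they cannot exclude it.

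Departures of members stayed at 0 except at 0.5 log2 unit (4). The median r of the 18 genes most alike was 0.964, with 0.909 after median-of-ratios scaling, 0.878 after quantile normalization and 0.908 as Spearman rho, and 0.943 to 0.969 on leaving out 1 embryo. The count of xHomo embryos with Dnmt3b over Dnmt3a below the xHet range, added after seeing the data, was 9 of 10, 8 or 9 on leaving out 1 embryo and 5 of 5 with low Xist. Unknown depth limits what Dppa3 and Dnmt3l show.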
